A study of Mus musculus with 24 samples.

Results

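The 9 genes described here were grouped under proximal uptake of sodium, bicarbonate and phosphate. They encode carriers of these ions, an exporter of phosphate and parts of a hormone receptor that acts on phosphate uptake. They are Slc9a3, Slc4a4, Slc34a1, Slc34a3, Slc20a1, Slc20a2, Xpr1, Kl and Fgfr1, and bulk kidney RNA does not show which cells express them. They were chosen by symbol, and all 9 were found among the 56748 gene identifiers of the table and passed the filter on low values. The kidneys came from female and male mice at the middle of the active period or of the inactive period. There were 24 libraries of poly A selected RNA, 6 for each sex and period, called active or inactive females and males below. No allele or agent is named for any group, and the sources used here give neither strain nor age. They also do not say that each library is a separate animal, so p-values measure the spread among samples, part of which may be technical.

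The proximal tubule is the first part of the nephron and reclaims most of the filtered sodium, bicarbonate and phosphate. At the apical membrane the exchanger NHE3 (Slc9a3) swaps luminal sodium for a proton, which titrates filtered bicarbonate, and the cotransporter NBCe1 (Slc4a4) lets bicarbonate and sodium leave on the blood side. Phosphate enters with sodium through NaPi-IIa (Slc34a1) and NaPi-IIc (Slc34a3) and, to a lesser degree, PiT-1 (Slc20a1) and PiT-2 (Slc20a2), while XPR1 exports phosphate from cells. The bone hormone FGF23 acts through a complex of an FGF receptor such as FGFR1 and its co-receptor klotho (Kl) and, like parathyroid hormone, lowers the amount of NaPi-IIa and NaPi-IIc in the apical membrane.

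Libraries held 31.04 M to 39.30 M recovered reads, and the lowest read number of any of the 9 genes in any library was 692, in Slc34a3. Values are the authors' normalized counts, that is, counts divided by a size factor per library. A gene was called at an adjusted p under 0.05 in limma, with Benjamini-Hochberg adjustment over all 17333 genes tested. The defining proximal markers Slc5a2 (5536 to 7067, group means) and Lrp2 (73556 to 92481) were high in every group, and the adrenal marker Cyp11b1 was at 0 in every library. Normalized totals ran from 29.56 M to 32.41 M in females and from 35.97 M to 39.52 M in males. Rescaling to equal totals moved the median log2 fold of all genes, male against female, from -0.045 to -0.32 in the active period and from -0.039 to -0.32 in the inactive period. The split of called genes moved from 5219 higher and 5290 lower to 2627 and 8850 in the active period, and from 4844 and 4818 to 2047 and 9083 in the inactive period. The same rescaling turned the split between periods from 1382 higher and 1210 lower to 1019 and 1570 in females and from 1461 and 1204 to 1131 and 1459 in males, while it moved the median of all genes by -0.032 and -0.028.

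Per kilobase of exon, Slc34a1 stood far above the other 8 genes in every group. Its level was 14346 ± 1752 normalized counts per kb in active females and 25312 ± 1614 in active males (mean ± SD, n = 6 libraries, as in all means below). Kl was at 2575 ± 262 and 2588 ± 193, and Slc4a4 at 2498 ± 363 and 2279 ± 271. Slc9a3 was lower, at 549 ± 60.6 in active and 746 ± 61.3 in inactive females. The other 5 genes had group means between 138 (Fgfr1, active males) and 579 (Slc34a3, inactive females). Of the summed level per kb of the 4 phosphate carriers, Slc34a1 held 94.1 ± 0.396% (active) and 94.4 ± 0.288% (inactive) in females, and 96.7 ± 0.300% and 96.0 ± 0.227% in males. The female range of 93.6% to 94.7% lay below the male range of 95.7% to 97.1%. Exon lengths were taken from an annotation of the older build GRCm38.

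**Figure D1:**
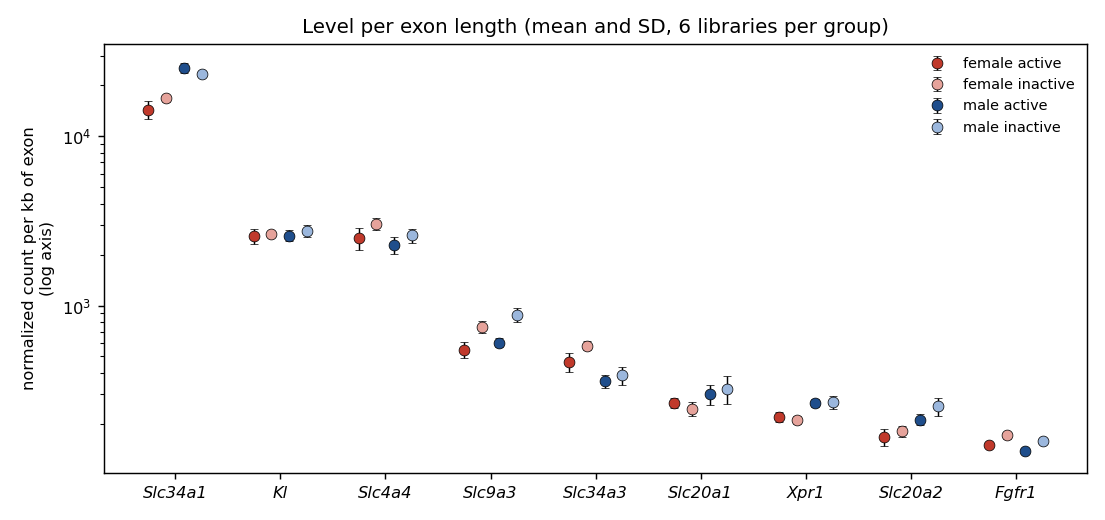
Normalized count per kilobase of exon (log axis) of the 9 genes, ordered by their mean over all libraries, with the mean and SD of 6 libraries in each of the 4 groups. Slc34a1 stands near 19950.4 on average and Kl near 2641, while Fgfr1, the lowest, is near 155.

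Active and inactive kidneys were compared to ask how these genes differ between the periods in each sex. In females Slc9a3, Slc4a4, Slc34a1, Slc34a3 and Fgfr1 fell in the active period and the other 4 genes did not pass, against 6.98% of all tested genes called lower and 7.97% called higher. In males Slc9a3, Slc20a2 and Fgfr1 fell and 6 did not pass, against 6.95% of all genes called lower and 8.43% higher. No gene of the 9 was called higher in either sex. The median log2 fold of the 9 was -0.18 in females and -0.12 in males, beside -0.0016 and 0.015 over all tested genes. Males and females were compared within each period. In the active period 3 of the 9 were higher in males (Slc34a1, Slc20a2 and Xpr1) and 2 lower (Slc34a3 and Fgfr1), beside 30.1% of all tested genes called higher and 30.5% lower. In the inactive period 5 were higher (these 3, Slc9a3 and Slc20a1) and 3 lower (Slc4a4, Slc34a3 and Fgfr1), beside 27.9% and 27.8% of all tested genes. In bulk kidney RNA, fewer cells of a type and less RNA per cell cannot be told apart.

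**Figure D2:**
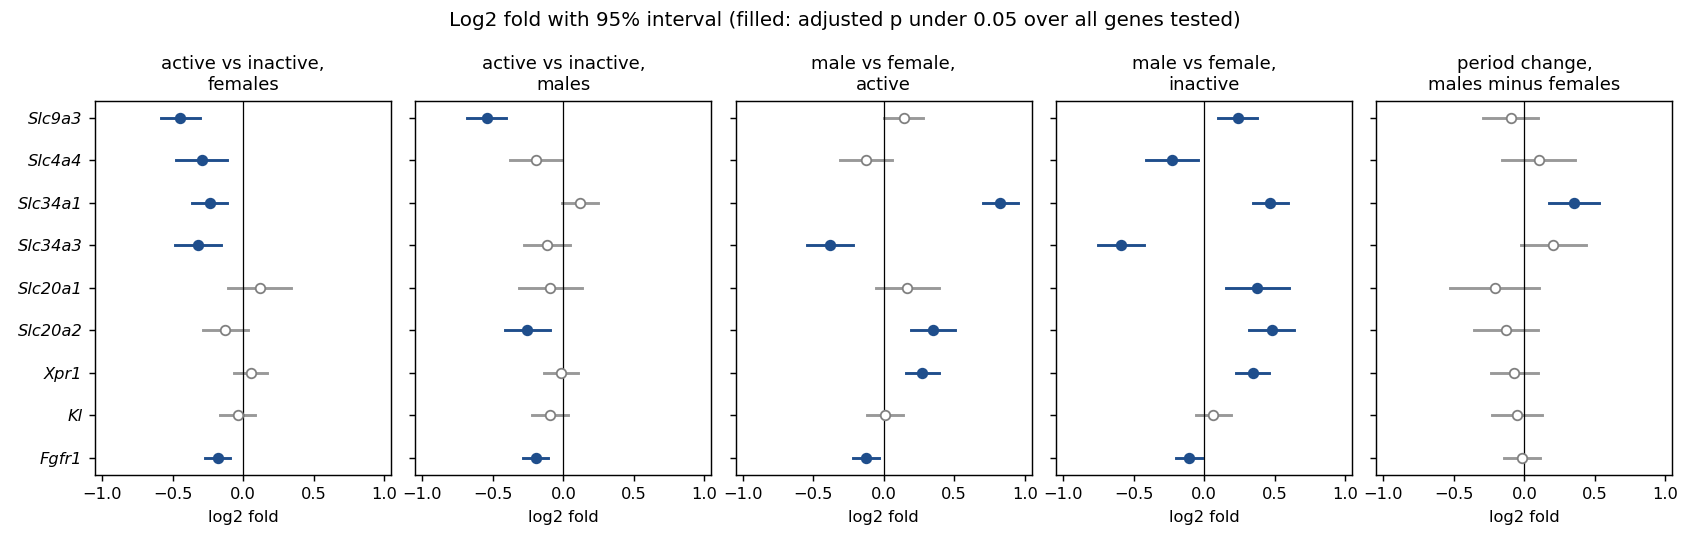
Log2 fold of the 9 genes in the 4 comparisons and in the difference between the period changes of males and females, with 95% intervals on a shared axis, where filled points passed an adjusted p under 0.05. Slc9a3 and Fgfr1 lie left of 0 in both period panels, and Slc34a1 is the only filled point in the last panel, at 0.35.

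Slc9a3 (ENSMUSG00000036123) had the largest period change of the 9 in each sex. In active females its lowest, median and highest libraries were at 2662, 2977 and 3566 normalized counts, and in inactive females at 3801, 3959 and 4604. Active males had 3065, 3293 and 3563 and inactive males 4131, 4849.7 and 5496. Every active library lay below every inactive library of its sex, where groups that do not overlap, in either direction, were found in 7.83% of all tested genes in females and 4.29% in males. The inactive level was 1.36 times the active one in females (log2 fold -0.45 ± 0.068 (SE), adjusted p = 2.29e-05) and 1.46 times in males (log2 fold -0.54 ± 0.068 (SE), adjusted p = 3.37e-06). The fall did not differ detectably between the sexes (difference -0.10, 95% interval -0.29 to 0.10, adjusted p = 0.620). In order of mean level, inactive males (4849 ± 451) stood first, then inactive females (4106 ± 337), active males (3319.6 ± 209.8) and active females (3019.8 ± 334). The last pair did not pass (log2 fold 0.14 ± 0.068 (SE), adjusted p = 0.0728), but did without female active replicate 2 (adjusted p = 0.0140) or male active replicate 2 (adjusted p = 0.0477). With equal totals the difference of this pair turned to -0.13 (adjusted p = 0.0549). Inactive males were higher than inactive females (log2 fold 0.24 ± 0.068 (SE), adjusted p = 0.00366), a difference that turned to -0.041 with equal totals (adjusted p = 0.570).

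The promoter of Slc9a3 is shown because this gene had the clearest period change and its window holds the letters CACGTG, the core of the E-box that the clock factors CLOCK and BMAL1 bind. The palindrome reads alike on both strands. Capitals in both windows mark CACGTG and, in Slc20a1, also AGGTCA. It lies 87 to 82 bases before the start site, in the RefSeq window of build GRCm38.p6 at chr13:74121163-74121412, plus strand. Slc20a1, which did not pass for period in either sex, is set beside it because its first start site (chr2:129198523-129198772, plus strand) holds the same letters at 175 to 170 and at 22 to 17 bases before the start, the latter overlapping a nuclear receptor hexamer AGGTCA by 2 bases. Of 32851 promoter windows, 6.02% hold CACGTG in the 250 bases before the start site and 14.0% hold AGGTCA on either strand.
Slc9a3: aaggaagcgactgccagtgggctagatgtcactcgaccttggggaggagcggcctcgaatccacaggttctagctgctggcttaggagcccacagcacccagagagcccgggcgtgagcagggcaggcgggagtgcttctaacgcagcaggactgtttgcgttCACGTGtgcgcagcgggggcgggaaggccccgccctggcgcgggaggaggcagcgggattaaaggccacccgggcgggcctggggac
Slc20a1: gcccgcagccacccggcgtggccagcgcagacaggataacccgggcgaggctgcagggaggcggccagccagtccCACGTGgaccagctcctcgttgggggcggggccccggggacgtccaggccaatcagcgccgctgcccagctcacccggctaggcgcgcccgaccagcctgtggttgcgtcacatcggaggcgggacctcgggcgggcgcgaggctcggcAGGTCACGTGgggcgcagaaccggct

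Of the 9 genes, 7 matched that table, with 9 windows in all, and Fgfr1 and Slc20a2 did not match. AGGTCA also stood in a window of Xpr1, in 1 of Slc4a4 and in the second of Slc20a1. Neither the D-box letters TTANGTAA (2.06% of all windows) nor the cyclic AMP element TGACGTCA (1.55%) were found in the 9 windows. A match is a stretch of letters and not a measured binding site, and the alleles of these mice were not read here.

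Slc4a4 (ENSMUSG00000060961) was lower in the active period in females. Active females had 21956, 28790.2 and 30704 normalized counts (lowest, median and highest) and inactive females 30310.4, 32827 and 36377. The groups overlapped, and female active replicates 3 and 4 were the low ones, at 21956 and 22181. The fall (log2 fold -0.29 ± 0.089 (SE), adjusted p = 0.0244) did not pass when replicate 3 or 4 of the active or replicate 1 or 4 of the inactive females was left out (adjusted p = 0.0514 to 0.0724), or without a filter on low values (adjusted p = 0.0839). Males had 19717, 25137 and 27469.6 in the active and 23739, 28508 and 31125 in the inactive period and did not pass (log2 fold -0.19 ± 0.089 (SE), adjusted p = 0.144). The 95% interval of the male difference was -0.38 to -0.0091, and the sexes were not shown to differ (adjusted p = 0.709).

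Beyond these, 25 partners of sodium-proton exchange and bicarbonate handling were counted, all of them tested. Between periods 3 rose and 3 fell in females, and 5 rose and 3 fell in males, with a median log2 fold of -0.03 and 0.05. Over all tested genes 15.0% and 15.4% were called and the medians were -0.0016 and 0.015. With equal totals the split in females was 2 higher and 6 lower. Car14, a membrane-bound carbonic anhydrase of the proximal tubule, had the smallest p in females, at 1676 ± 279 in the active and 2973 ± 316 in the inactive period (log2 fold -0.84 ± 0.10 (SE), adjusted p = 7.11e-07). Its period change differed between the sexes (difference 0.62, adjusted p = 0.0145), and it did not pass in males (log2 fold -0.21, adjusted p = 0.130). Slc26a6, an apical anion exchanger, fell in females (log2 fold -0.59, adjusted p = 0.000104) and in males (log2 fold -0.43, adjusted p = 0.00503). Slc9a3r2, which encodes the scaffold NHERF2 that binds NHE3, rose in males (log2 fold 0.62 ± 0.087 (SE), adjusted p = 1.95e-05), with 1503 ± 95.3 in active and 991 ± 173 in inactive libraries. It was called higher in active females too (log2 fold 0.27, adjusted p = 0.0334), but not with equal totals (adjusted p = 0.110) or upper quartile scaling (adjusted p = 0.0527), and the period changes of the sexes were not shown to differ (adjusted p = 0.113). The basolateral potassium channel subunit gene Kcnj16 fell in males (log2 fold -0.20, adjusted p = 0.0172), a call lost without male inactive replicate 4 (adjusted p = 0.0519). In females Pdzk1ip1, which encodes a small membrane protein that binds PDZK1, fell (log2 fold -0.23, adjusted p = 0.0139). The anion exchanger gene Slc4a2 rose in females (log2 fold 0.18, adjusted p = 0.0215), a call lost with equal totals, with no filter, or without replicate 3 or 4 of the active or replicate 1 or 2 of the inactive females (adjusted p up to 0.0856). Of the 25 genes, Car14 and Slc9a3r1 alone were called for the difference between the period changes of the sexes, beside 2.71% of all tested genes.

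The period changes stand beside those of general proximal markers. Of 8 markers listed for the first proximal segments, 2 were lower in active females (Slc2a2 and Slc6a19) and 3 in active males (these and Slc5a12), and 0 were higher. Over all tested genes 6.98% in females and 6.95% in males were called lower, and 7.97% and 8.43% higher. The summed level of the 8 markers, which include Lrp2, was 129934 to 168191 normalized counts in active and 147566 to 171705 in inactive females, and 122107 to 133973 and 127743 to 142742 in males, ranges that overlap. The defining markers Slc5a2 (log2 fold -0.18 in females, adjusted p = 0.0825, and -0.035 in males, adjusted p = 0.777) and Lrp2 (0.094, adjusted p = 0.453, and 0.029, adjusted p = 0.835) did not pass. Of 6 markers of the last proximal segment, 1 fell in each sex (Slc17a4), beside the same shares of all tested genes. The part of cell makeup in the changes of Slc9a3 and the other genes was not tested.

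**Figure D3:**
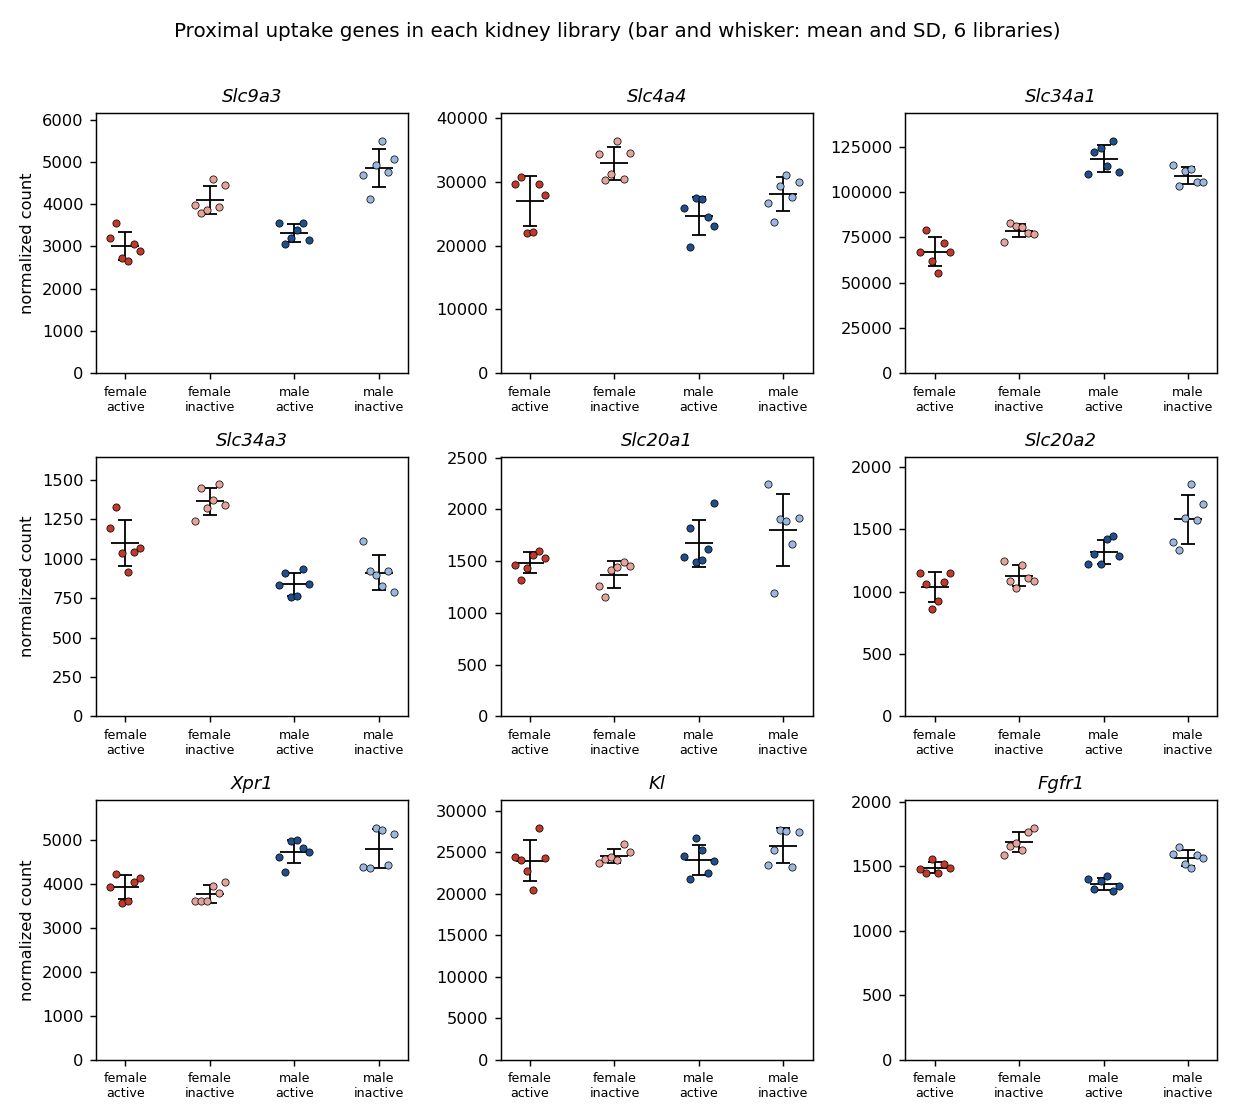
Normalized counts (axes from 0) of each of the 9 genes in the 24 libraries, with the mean and SD of each group of 6. The active and inactive libraries of Slc9a3 and of Fgfr1 do not overlap within either sex, and male and female libraries of Slc34a1 do not overlap within either period. Of all tested genes, 7.83% (females) and 4.29% (males) had periods that do not overlap. For the sexes these shares were 36.3% (active) and 32.3% (inactive).

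Slc34a1 (ENSMUSG00000021490), the main phosphate carrier of the apical membrane, fell in active females and had the largest sex difference of the 9 in the active period in the authors' scaling. With equal totals that of Slc34a3 was larger in size (-0.66 against 0.55). Active females had 55298, 66979 and 79151 normalized counts (lowest, median and highest) and inactive females 72637, 79133 and 83067. Active males had 110012, 118241 and 128055 and inactive males 103551, 108704 and 115148. All male libraries lay above all female libraries of the same period. Sexes that do not overlap, in either direction, were found in 36.3% of all tested genes in the active and 32.3% in the inactive period. The male level was 1.77 times the female one in the active period (log2 fold 0.83 ± 0.061 (SE), adjusted p = 1.02e-12) and 1.39 times in the inactive period (log2 fold 0.47 ± 0.061 (SE), adjusted p = 1.29e-07). With equal totals the log2 folds were 0.55 (adjusted p = 1.23e-10) and 0.19 (adjusted p = 0.00170). Against a median of all genes of -0.045 and -0.039, the male excess was 0.87 and 0.51 on the log2 scale.

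In the active period Slc34a1 fell in females (log2 fold -0.24 ± 0.061 (SE), adjusted p = 0.00707) and did not pass in males, where its mean was higher (log2 fold 0.12 ± 0.061 (SE), adjusted p = 0.195, 95% interval -0.0080 to 0.24). The 2 period changes differed (difference 0.35 ± 0.087, adjusted p = 0.0228). It was the only one of the 9 genes called in this test, beside 1.41% of all tested genes with a higher and 1.30% with a lower value in this test, 2.71% in all. The call held without any 1 of the 24 libraries, and missed the threshold with a plain variance prior (adjusted p = 0.0540) and with no filter on low values (adjusted p = 0.0667). Female active replicates 3 and 4 were the lowest of their group for Slc34a1, at 61987 and 55298. They were also the lowest of that group for Slc9a3, Slc4a4, Slc34a3, Slc20a2, Xpr1 and Kl, but not for Slc20a1 or Fgfr1. No fit left out both together, so the part of this pair in the female falls and in the Slc34a1 difference was not tested.

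Of 4 scaffold and receptor genes beside NaPi-IIa, Slc9a3r1, Pth1r and Pdzk1 were higher in males and Slc9a3r2 was lower. Over all tested genes 60.6% were called, in either direction, in the active and 55.7% in the inactive period. Slc9a3r1 encodes NHERF1, the scaffold that holds NaPi-IIa in the apical membrane, and was at 6238 ± 371, 6797 ± 352, 12874 ± 1619 and 11239 ± 314 normalized counts, in that order for females (active, then inactive) and males. Its lowest male library, at 10856, lay above its highest female one, at 7364. The log2 folds between the sexes were 1.04 in the active (adjusted p = 3.90e-15) and 0.73 in the inactive period (adjusted p = 1.81e-11). Pth1r, the parathyroid hormone receptor, was at 9013 ± 1679.7 and 9795 ± 1285 in active and inactive females and at 17571 ± 2307 and 14727 ± 1219 in males (log2 fold 0.97, adjusted p = 8.11e-08, and 0.59, adjusted p = 9.35e-05). Pdzk1, another PDZ scaffold of apical carriers, was higher in males by 0.58 (adjusted p = 1.23e-07) and 0.53 (adjusted p = 6.79e-07). The sex calls of these 3 genes held under all scalings. Slc9a3r2, the scaffold NHERF2, was lower in males in the active (log2 fold -0.26, adjusted p = 0.0113) and in the inactive period (-0.61, adjusted p = 8.42e-07). The period change of Slc9a3r1 also differed between the sexes (difference 0.31, adjusted p = 0.0422), but this call was lost in 19 of 35 alternatives, with an adjusted p of up to 0.0853. It held without female active replicate 2 or 5, female inactive replicate 1, male active replicate 1 or 4 or male inactive replicate 1 or 2, and without any other single library it was lost.

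**Figure D4:**
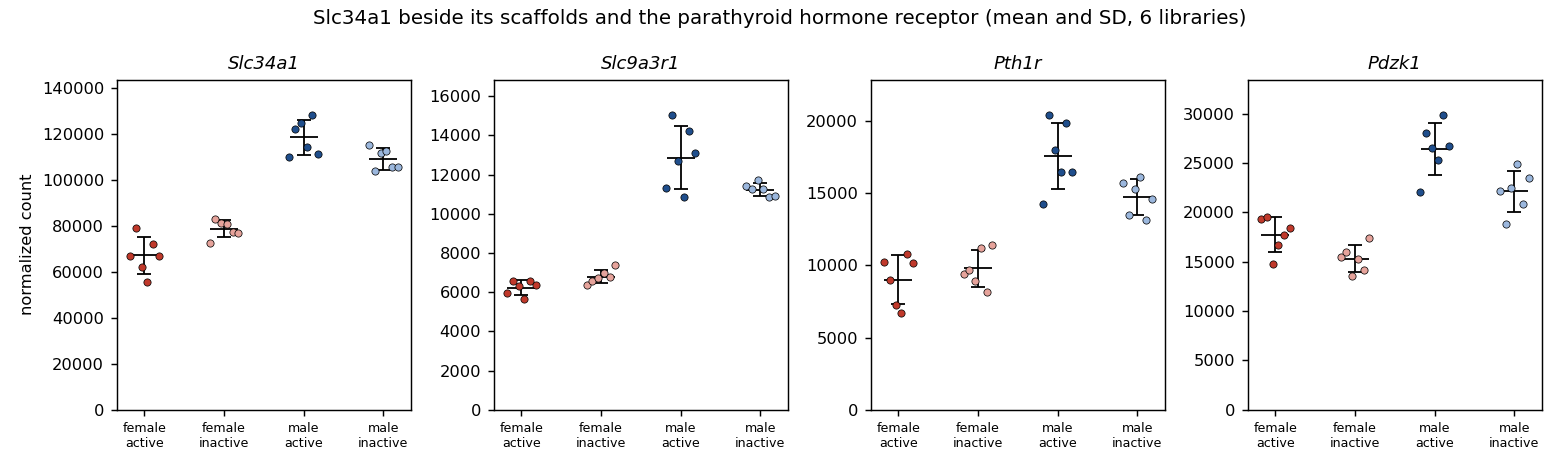
Normalized counts (axes from 0) of Slc34a1, Slc9a3r1, Pth1r and Pdzk1 in the 24 libraries, with the mean and SD of each group of 6. Male libraries lie above female libraries of the same period in all 4 genes, with the lowest male library of Slc9a3r1 at 10856 and of Pth1r at 13113. Sexes that do not overlap, in either direction, were found in 36.3% of all tested genes in the active and 32.3% in the inactive period. Slc9a3r2, which was lower in males, is not drawn.

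Slc34a3 (ENSMUSG00000006469), the second apical carrier of this family, had the opposite sex difference. Active and inactive females had 914, 1055 and 1329.8 and 1236, 1355 and 1471 normalized counts (lowest, median and highest). Active and inactive males had 755, 835 and 934 and 789, 909 and 1111. It was lower in males in the active (log2 fold -0.38 ± 0.080 (SE), adjusted p = 0.000146) and in the inactive period (log2 fold -0.59 ± 0.080 (SE), adjusted p = 3.16e-07), and only in the inactive period did the sexes not overlap. In that period 32.3% of all tested genes had sexes that do not overlap, in either direction. Within libraries, which no scaling touches, Slc34a1 per kb was 30.9 ± 2.23 and 29.1 ± 1.45 times Slc34a3 in active and inactive females and 71.5 ± 6.59 and 61.0 ± 6.57 times in active and inactive males. The female ratios ran from 26.5 to 34.9 and the male ones from 52.2 to 83.1. Between periods Slc34a3 fell in active females (log2 fold -0.32 ± 0.080 (SE), adjusted p = 0.00574) and did not pass in males (log2 fold -0.12, 95% interval -0.28 to 0.049, adjusted p = 0.351), and the difference between the sexes did not pass (adjusted p = 0.335).

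The promoter windows of both NaPi genes are shown because these relatives differ in opposite directions between the sexes. In Slc34a3 the capitals mark AGGTCA, once on each strand (TGACCT as printed for the second), at 33 to 28 and at 6 to 1 bases before the start site. In Slc34a1 none of the 4 motifs searched was found, which says only that these letters are not in this window. The windows are at chr13:55399398-55399647, plus strand, and chr2:25234235-25234484, minus strand, of GRCm38.p6.
Slc34a1: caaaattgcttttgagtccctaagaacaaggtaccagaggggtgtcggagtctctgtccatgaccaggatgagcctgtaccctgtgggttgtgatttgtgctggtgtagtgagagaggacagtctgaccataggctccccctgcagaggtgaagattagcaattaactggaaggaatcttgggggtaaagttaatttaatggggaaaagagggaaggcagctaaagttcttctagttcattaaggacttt
Slc34a3: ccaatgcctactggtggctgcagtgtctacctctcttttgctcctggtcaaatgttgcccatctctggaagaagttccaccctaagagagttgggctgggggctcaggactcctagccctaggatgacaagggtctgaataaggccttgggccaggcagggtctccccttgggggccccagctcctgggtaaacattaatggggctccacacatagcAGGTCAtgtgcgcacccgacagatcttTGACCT

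The type III carriers Slc20a1 (ENSMUSG00000027397) and Slc20a2 (ENSMUSG00000037656), which are found in many tissues, were both higher in inactive males than in inactive females. Slc20a2 had 859, 1071 and 1149 normalized counts in active and 1030.4, 1097 and 1245 in inactive females (lowest, median and highest), and 1220.0, 1294 and 1446 and 1332, 1585 and 1859 in active and inactive males. The sexes did not overlap in either period (log2 fold 0.35 ± 0.078 (SE), adjusted p = 0.000285 in the active period, and log2 fold 0.48 ± 0.078 (SE), adjusted p = 4.86e-06 in the inactive one). Over all tested genes 36.3% and 32.3% had sexes that do not overlap, in either direction. With equal totals the log2 folds were 0.074 (adjusted p = 0.362) and 0.20 (adjusted p = 0.0150). Slc20a2 fell in active males (log2 fold -0.26 ± 0.078 (SE), adjusted p = 0.0234), a call lost without male active replicate 3 or male inactive replicate 4 or 6 (adjusted p = 0.0515 to 0.0756). It did not pass in females (log2 fold -0.13, 95% interval -0.28 to 0.032, adjusted p = 0.312). Exons of Slc20a2 overlap those of Smim19 on the opposite strand (mean 799 normalized counts, beside 1264 for Slc20a2), and without a stated strand setting reads of the shared stretch cannot be assigned.

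Slc20a1 had the widest spread of the 9 in inactive males, from 1196 to 2241 normalized counts with a median of 1900.1. Active males ran from 1488 to 2066, active females from 1316 to 1597 and inactive females from 1152 to 1496. The sex difference passed in the inactive period (log2 fold 0.38 ± 0.11 (SE), adjusted p = 0.00442) but was 0.098 with equal totals (adjusted p = 0.411). It did not pass in the active period (log2 fold 0.17 ± 0.11 (SE), adjusted p = 0.185), nor did the period in females (log2 fold 0.12 ± 0.11 (SE), adjusted p = 0.531) or males (log2 fold -0.093 ± 0.11 (SE), adjusted p = 0.604).

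Xpr1 (ENSMUSG00000026469), the exporter, passed no period test and was higher in males in the authors' scaling. Active and inactive females had 3573, 3989 and 4209.7 and 3598, 3705 and 4036 normalized counts (lowest, median and highest). Active and inactive males had 4275, 4770.4 and 4987 and 4363, 4781 and 5273. The sexes did not overlap in either period (log2 fold 0.27 ± 0.057 (SE), adjusted p = 0.000145 in the active period, and log2 fold 0.35 ± 0.057 (SE), adjusted p = 7.18e-06 in the inactive one). Such separation, in either direction, was found in 36.3% and 32.3% of all tested genes. With equal totals the folds were -0.0018 (adjusted p = 0.977) and 0.066 (adjusted p = 0.263), so that the direction for Xpr1 turns in the active period. In each period 23 of 24 alternatives kept the sex call, and equal totals was the exception. The 95% intervals of the period difference were -0.062 to 0.17 in females (adjusted p = 0.595) and -0.13 to 0.10 in males (adjusted p = 0.874).

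Kl (ENSMUSG00000058488), the klotho co-receptor, passed in none of the 5 tests. Its libraries ran from 20508 to 27986 normalized counts (active) and 23751 to 26012 (inactive) in females, and from 21791 to 26736 and 23217 to 27759.7 in males. The 95% interval of the log2 fold was -0.16 to 0.086 for the period in females (adjusted p = 0.744) and -0.22 to 0.030 in males (adjusted p = 0.308). Between the sexes it was -0.12 to 0.13 in the active (adjusted p = 0.901) and -0.060 to 0.19 in the inactive period (adjusted p = 0.379). With equal totals Kl was lower in males, with log2 folds of -0.27 (adjusted p = 2.48e-04) and -0.21 (adjusted p = 0.00227), so its sex direction depends on the scaling.

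Fgfr1 (ENSMUSG00000031565), a receptor tyrosine kinase that pairs with klotho, fell in the active period in both sexes. Active females had 1447, 1484 and 1555 normalized counts (lowest, median and highest) and inactive females 1589.8, 1673 and 1800.5. Active males had 1310.4, 1368 and 1422 and inactive males 1485, 1577 and 1651. Active and inactive libraries did not overlap in either sex, beside 7.83% of all tested genes in females and 4.29% in males, in either direction. The fall passed in females (log2 fold -0.18 ± 0.044 (SE), adjusted p = 0.00463) and males (log2 fold -0.20 ± 0.044 (SE), adjusted p = 0.00297), with a difference of -0.017 (95% interval -0.14 to 0.11, adjusted p = 0.913). The SD was 2.79% to 4.79% of the mean in the 4 groups, the smallest of the 9 genes in each group but inactive females, where Kl had 3.37% and Slc34a1 4.77%. Fgfr1 was lower in males in the active period, where the sexes did not overlap (log2 fold -0.13 ± 0.044 (SE), adjusted p = 0.0155), as in 36.3% of all tested genes in either direction. In the inactive period it was lower by a call (log2 fold -0.11 ± 0.044 (SE), adjusted p = 0.0386) that was lost without female inactive replicate 3, 5 or 6 or male inactive replicate 3, 4 or 6 (adjusted p = 0.0536 to 0.0973). Without a filter on low values both sex calls were lost (adjusted p = 0.0557 and 0.116), and with only the compared groups fitted the inactive one was (adjusted p = 0.0606). With equal totals the log2 folds of Fgfr1 were larger in size, at -0.40 in the active (adjusted p = 1.62e-07) and -0.39 in the inactive period (adjusted p = 3.46e-07).

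Other genes of phosphate and calcium hormone signalling were counted from a list of 16, of which 14 were tested. Fgf23 itself, which bone makes, reached at most 4.62 normalized counts in any library. Between periods 3 rose and 0 fell in females, and 4 rose and 3 fell in males, with a median log2 fold of 0.06 and 0.11, beside 15.0% and 15.4% of all tested genes called. Fam20c, the kinase that phosphorylates FGF23, rose in females (log2 fold 0.35 ± 0.064 (SE), adjusted p = 0.000213) and males (log2 fold 0.29, adjusted p = 0.00233). Galnt3, whose product glycosylates FGF23, rose in males (log2 fold 0.33, adjusted p = 0.000142) and in females (log2 fold 0.18, adjusted p = 0.0264). The female call was lost with equal totals, with no filter on low values, or when replicate 1, 5 or 6 of the active or replicate 2, 3 or 4 of the inactive females was left out (adjusted p up to 0.0740). The receptor Fgfr4 rose in males (log2 fold 0.37 ± 0.066 (SE), adjusted p = 0.000310), opposite to Fgfr1. Stc2, a stanniocalcin, was at 375 ± 51.9 in active and 189 ± 44.8 in inactive females (log2 fold 1.01 ± 0.15 (SE), adjusted p = 1.58e-05). In males too its mean was higher in the active period, at 118 against 84.2 in the inactive one. Cyp24a1, which inactivates vitamin D, fell in males (log2 fold -2.50, adjusted p = 4.42e-06) and did not pass in females (-0.42, adjusted p = 0.344), and these changes differed (difference -2.09, adjusted p = 0.00713). Of the 14 tested genes Cyp24a1 alone was called for this difference between the sexes, beside 2.71% of all tested genes.

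Between the sexes 5 genes of this list were higher and 7 lower in active males, and 6 were higher and 6 lower in inactive males, beside 60.6% and 55.7% of all tested genes called in these comparisons. Fgfr4 was at 925 ± 93.4 in active females and 1519.6 ± 110.0 in active males (log2 fold 0.72 ± 0.066 (SE), adjusted p = 9.10e-11), while the calcium-sensing receptor Casr was at 876 ± 97.1 and 464 ± 71.5 (log2 fold -0.92 ± 0.091 (SE), adjusted p = 4.18e-10). Galnt3 was higher in males (log2 fold 0.69 and 0.54, adjusted p = 4.69e-12 and 1.35e-09), and Stc2 lower (-1.67 and -1.14, adjusted p = 6.34e-11 and 1.40e-07). The vitamin D receptor gene Vdr was higher in inactive males (log2 fold 0.64, adjusted p = 1.49e-07). In the same list Fgfr2 (-0.47, adjusted p = 6.91e-06) and Fgfr3 (-0.42, adjusted p = 0.000173) were lower in active males, as Fgfr1 was.

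Of 14 genes of FGF receptor and ERK feedback, 13 were tested, and Klb, the liver-type klotho relative, was not, with at most 32.7 normalized counts. In each sex 3 fell and 0 rose in the active period, with medians of -0.07 and -0.23, beside 6.98% and 6.95% of all tested genes called lower and 7.97% and 8.43% higher in females and males. The ETS factors Etv5 (log2 fold -0.51 in females, adjusted p = 3.86e-05, and -0.54 in males, adjusted p = 4.19e-05) and Etv1 (-0.49, adjusted p = 3.07e-05, and -0.36, adjusted p = 0.00183), which FGF signalling is known to induce, fell in both sexes. Etv5 was at 535 ± 60.0 and 763 ± 83.7 normalized counts in active and inactive females and at 529 ± 48.4 and 768 ± 37.1 in males. The phosphatase gene Dusp4 fell in females (log2 fold -0.49, adjusted p = 0.0135), a call lost without female inactive replicate 2 (adjusted p = 0.0515), and the inhibitor Spred2 fell in males (log2 fold -0.27, adjusted p = 0.00435). Dusp6, another ERK phosphatase, did not pass in females (0.080, adjusted p = 0.794) or males (-0.34, adjusted p = 0.127). For the difference between the period changes of the sexes 0 of the 13 were called, beside 2.71% of all tested genes. A fall called in 1 sex is therefore not shown to be particular to that sex.

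Between the sexes 3 of these 13 were higher and 3 lower in active males (3 and 7 with equal totals), and 4 higher and 5 lower in inactive males (3 and 7), beside 30.1% of all tested genes higher and 30.5% lower in the active and 27.9% and 27.8% in the inactive period. Etv1 was higher in males in both periods (log2 fold 1.01 and 0.88, adjusted p = 1.36e-12 and 3.57e-11), as was Dusp4 (1.39 and 1.13, adjusted p = 5.65e-10 and 4.95e-08). The adaptor Frs2 (-0.37, adjusted p = 4.18e-05) and Spred2 (-0.38, adjusted p = 6.45e-06) were lower in active males, and the inhibitor Spry1 (-0.68, adjusted p = 0.000150) and Etv4 (-0.78, adjusted p = 0.00654) in inactive males. Etv5 did not pass between the sexes, with log2 folds of -0.013 and 0.015 (95% intervals -0.18 to 0.15 and -0.15 to 0.18), but with equal totals it was lower in males (-0.29 and -0.26, adjusted p = 0.00304 and 0.00622).

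A last list held 15 genes of phosphate sensing and other phosphate handling, all tested. Between periods 1 rose and 0 fell in females, and 2 rose and 1 fell in males, with medians of 0.06 and 0.02, beside 15.0% and 15.4% of all tested genes called. Slc17a1, an organic anion and phosphate carrier of the proximal tubule, rose in females (log2 fold 0.35 ± 0.072 (SE), adjusted p = 0.00112). The pyrophosphate transporter gene Ank rose in males (log2 fold 0.43, adjusted p = 0.00832), and so did Alpl, the tissue-nonspecific alkaline phosphatase (log2 fold 0.21, adjusted p = 0.0177). The call of Alpl was lost with only the compared groups fitted, or without male active replicate 2 or 5 or male inactive replicate 3 (adjusted p up to 0.0540). Abcc6 fell in males (log2 fold -0.33, adjusted p = 0.0304), a call lost with no filter on low values, or without male active replicate 3, 5 or 6 or male inactive replicate 4, 5 or 6 (adjusted p up to 0.0843). The period change of Alpl differed between the sexes (difference 0.36, adjusted p = 0.0186). Of the 15 genes Alpl alone was called for this difference, beside 2.71% of all tested genes. The inositol pyrophosphate kinase genes Ip6k1, Ip6k2, Ppip5k1 and Ppip5k2, whose products make the signal that XPR1 and other SPX proteins bind, had period log2 folds of 0.061, 0.14, 0.092 and 0.024 in females and 0.083, 0.0032, -0.13 and -0.16 in males, and none of these 8 values passed.

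Between the sexes 6 of these 15 were higher and 7 lower in active males (3 and 10 with equal totals), and 6 higher and 4 lower in inactive males (3 and 8), beside 30.1% of all tested genes higher and 30.5% lower in the active and 27.9% and 27.8% in the inactive period. Slc17a1 was at 14772 ± 1527 in active females and 34069 ± 2816 in active males (log2 fold 1.21 ± 0.072 (SE), adjusted p = 1.31e-14), and its relative Slc17a3 at 12560.1 ± 3267 and 41243 ± 4793 (log2 fold 1.75 ± 0.15 (SE), adjusted p = 1.96e-09). The glucose 6-phosphate carrier Slc37a4 was higher in active males (log2 fold 0.80, adjusted p = 1.08e-10). Ank (-0.84 and -1.12, adjusted p = 1.16e-07 and 6.16e-10) was lower in males, and Alpl most clearly in the inactive period (-0.69, adjusted p = 3.79e-11).

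Among the 25 partners of sodium and bicarbonate transport, 10 were higher and 7 lower in active males (7 and 13 with equal totals), and 8 higher and 7 lower in inactive males (5 and 15), beside 60.6% and 55.7% of all tested genes called. Beside Slc9a3r1, the genes with the smallest p were Car4, the carbonic anhydrase anchored at the luminal surface, at 3053 ± 236 in active females and 7535 ± 936 in active males (log2 fold 1.30 ± 0.088 (SE), adjusted p = 1.41e-12), the potassium channel subunit Kcnj15 (log2 fold 0.70, adjusted p = 1.13e-10) and the sulfate and oxalate exchanger Slc26a1 (log2 fold 0.65, adjusted p = 1.59e-09). Cytosolic Car2 was lower in inactive males (log2 fold -0.51, adjusted p = 6.56e-09). Slc4a4 itself was lower in inactive males (log2 fold -0.23 ± 0.089 (SE), adjusted p = 0.0311), a call lost without female inactive replicate 1, 4 or 6 or male inactive replicate 1 or 2 (adjusted p = 0.0591 to 0.0865) or a filter on low values (adjusted p = 0.0897), and it did not pass in the active period (log2 fold -0.13 ± 0.089 (SE), adjusted p = 0.221). With equal totals both sex differences of Slc4a4 passed (log2 fold -0.40 and -0.51, adjusted p = 1.75e-04 and 1.12e-05).

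Markers of proximal segments and other cell types also differed between the sexes. Of the members, 5 of 9 were called in the active and 8 in the inactive period, beside 60.6% and 55.7% of all tested genes. Of 6 markers of the last proximal segment 5 were higher and 1 lower in males in each period (4 and 1, and 3 and 1, with equal totals), with a summed level of 115255 to 144601 normalized counts in active females and 300104 to 351727 in active males. Of 8 markers of the first segments 1 was higher and 5 lower in active males, and 1 higher and 6 lower in inactive males, with sums of 129934 to 168191 and 122107 to 133973 in active females and males. The defining marker Lrp2, used here for the whole proximal tubule, is 1 of these 8 and made up most of their sums. It was at 92481 ± 12597 in active females, of a mean sum of 152740, and at 75081 ± 4481 in active males, of 127613. These sums therefore do not stand for the first segments alone. All 5 podocyte and all 5 endothelial markers were lower in males in both periods. Their part in the results of Slc34a1, Slc34a3 and the other genes was not tested.

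The genes most like each of 8 members (not Kl, which passed no test) over the 24 libraries were named by the Pearson correlation of log2 values among 12490 other genes with a mean of at least 50. These correlations hold both the sex and the period differences, share the size factors, and are given as a description. Slc34a1 was most like Apeh (r = 0.99), Cryl1 (r = 0.99) and Slc22a18 (r = 0.98), and Xpr1 most like Mcur1, Snx27 and Clcn3 (r = 0.96, 0.96 and 0.95). Slc9a3 was most like Erlin2 (r = 0.91), Wipi1 (r = 0.90) and Dab2 (r = 0.90), and Slc4a4 most like Fut9 (r = 0.90), Trpm3 (r = 0.89) and Slc2a13 (r = 0.86). For Slc34a3 these were Cotl1 (r = 0.91), Slc3a2 (r = 0.91) and Gas6 (r = 0.88), and for Fgfr1 they were Bhlhe41 (r = 0.90), Slc25a36 (r = 0.90) and Kazn (r = 0.89). Slc20a2 was most like Oxsm (r = 0.93), Rnf103 (r = 0.92) and Lyrm2 (r = 0.92). Slc20a1 had the weakest likeness, with Slc25a25 (r = 0.82), Vmp1 (r = 0.76) and Ube2d2a (r = 0.74).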

How the data were processed

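The deposited table gives, for every gene and library, a signal: gene counts that the authors had divided by a size factor (0.828 to 1.28 over the libraries), as the values and the labels show. The tools named in the submitters' processing notes are DESeq2 1.28.1, featureCounts, Trim Galore 0.6.10 and Subread 2.0.6, with build GRCm39. The order of steps, annotation release and strand setting were not given in the sources used here. Every value was a whole multiple, within 0.05, of what 1 read is worth (100% of values), so reads were recovered. On them edgeR 4.0.16 called 2642 and 2673 genes for the period in females and males.

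Log2 of the normalized count plus 1 was fitted over all 24 libraries in limma 3.58.1 (R 4.3.3; trend and robust options, 20 residual degrees of freedom) for the 17333 genes whose mean was 10 or more. Folds are on this scale, which understates changes of low genes. Members and lists were chosen with earlier results of these data known. Named were all 9 members, up to 4 called genes of smallest p per list and comparison, scaffolds or receptors of a member, and the 3 genes most like it. One gene that this rule names is not reported here. Other genes given with values, such as Dusp6, Agtr1a and the inositol kinases, were chosen after their values were seen. Alternatives were pseudocounts of 0.5 and 5, no filter, TMM, upper quartile and equal-total scaling, a fit of only the compared groups, weighted libraries, a plain prior, edgeR, DESeq2 1.42.0, leaving out each library, and blocking on title numbers. Code was checked on simulated data. Symbols, exon lengths and RefSeq promoter windows are of build GRCm38.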

Additional observations from a re-analysis of the deposited data

Results flagged for a closer look

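The period change of Slc34a1 differed between the sexes, by a test of the difference itself (males minus females, 0.35 on the log2 scale, adjusted p = 0.0228 in limma). Active females stood at 67082 ± 8194 and inactive females at 78677 ± 3751 normalized counts, while active males stood at 118356 ± 7548 and inactive males at 109038 ± 4743. Gaps were looked for in 36 groups of 6 libraries, 4 for each of the 9 genes, and 0 groups had a library farther from the rest than the 95% limit, where chance alone flags about 1 in 20. This rule sets the gap between the end library and its nearest neighbour against the range, so it cannot flag libraries that are low together. Such were female active replicates 3 and 4 for Slc4a4, at 21956 and 22181 normalized counts with the next at 27965.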

How the results depend on the processing

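Of 1161 values of the 9 genes under alternatives, 1110 kept their direction and their side of the threshold and 17 turned direction, some of them also crossing the threshold. Of those that kept direction, 30 lost the call and 4 gained one. Turned with equal totals, male against female, were Slc9a3 (-0.13 in the active and -0.041 in the inactive period), Slc20a1 (-0.11, active), Xpr1 (-0.0018, active) and Kl (-0.27 and -0.21). With upper quartile scaling only Kl turned (-0.065 and -0.0047). With a library left out, values near 0 turned for the period difference of Kl in females (range -0.085 to 0.0050) and Xpr1 in males (-0.044 to 0.012) and the sex difference of Kl in the active period (-0.035 to 0.055), and the cause was not tested. All genes called for the period in males numbered 1756 with only those groups fitted (2665 in the full fit). For the difference between the period changes, 470 genes were called, 950 with DESeq2, 247 with no filter and 289 with a plain prior, and the last 2 left 0 of the 9 genes called in limma, where 1 (Slc34a1) had an unadjusted p under 0.05 in the full fit and edgeR and DESeq2 on recovered reads called it (adjusted p = 0.0235 and 0.00638). Without 1 library the 470 became 276 to 780 (276, 293, 290, 780 and 293 without female active replicate 4, female inactive replicates 2 and 3, male active replicate 1 and male inactive replicate 3), while 1 of the 9 stayed called. Called members with 1 library left out were 4 to 5 and 2 to 3 for the period in females and males and 5 to 6 and 6 to 8 for sex in the active and inactive periods. Of 78 calls of list genes, 69 held under all alternatives. These were mostly the up to 4 calls of smallest p per list and comparison, so this share does not stand for the other list calls. Some of those were lost or turned with scaling alone, such as Slc25a3 between the sexes in the active period (0.11, and -0.16 with equal totals). The title numbers, each used for 1 male and 1 female library, gave little sign of shared deviations (12 correlations of deviations from group means, -0.10 to 0.12). The labels do not say whether these numbers pair the libraries, and the correlations do not settle it. With the title numbers as a replicate block, 10297, 9448 and 531 genes were called for sex in each period and the difference, against 10509, 9662 and 470, and Slc34a1 kept its difference of 0.35 (adjusted p = 0.0196). The block ended the inactive-period sex calls of Slc4a4 (adjusted p = 0.0681) and Fgfr1 (adjusted p = 0.0736), let the active-period sex difference of Slc9a3 pass (0.14, adjusted p = 0.0394) and changed no other call of the 9 genes. For the period comparisons the numbers are not shared. Each of the 9 genes had at least 692 reads in every library.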

Other observations

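The ratio of the bicarbonate exit gene to the sodium-proton exchanger gene within each library, which no scaling touches, is given as a description. Slc4a4 per kb was 4.54 ± 0.362 times Slc9a3 in females in the active and 4.08 ± 0.166 in the inactive period, and 3.78 ± 0.400 and 2.95 ± 0.0618 in males (mean ± SD, n = 6, no test). Inactive males spanned only 2.88 to 3.03, below every library of the other groups, of which active males ran lowest (3.27 to 4.37). The ratio of Kl to Fgfr1 per kb was 17.1 ± 1.63, 15.4 ± 0.366, 18.7 ± 0.959 and 17.5 ± 1.95 in the same order.

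Hormone receptors and kinases that act on proximal sodium uptake made a list of 16, of which 12 were tested. Between periods 1 rose and 0 fell in females (15.0% of all tested genes were called; the kinase gene Sgk1, 2.42 times the inactive level, adjusted p = 0.00474), and 0 rose and 2 fell in males (15.4% of all tested genes; Sgk3, log2 fold -0.31 ± 0.066 (SE), adjusted p = 0.00207, and the insulin receptor Insr, log2 fold -0.19, adjusted p = 0.00647). The angiotensin receptor Agtr1a did not pass for the period (log2 fold -0.16 in females, adjusted p = 0.102, and -0.11 in males, adjusted p = 0.286). For the difference between the period changes of the sexes 0 of the 12 were called, beside 2.71% of all tested genes. Between the sexes 3 were higher and 6 lower in active males (1 and 8 with equal totals) and 3 higher and 8 lower in inactive males (1 and 9), beside 30.1% of all tested genes higher and 30.5% lower in the active and 27.9% and 27.8% in the inactive period. Ace, the angiotensin-converting enzyme, was at 2914 ± 472 in active females and 7062 ± 814 in active males (2.44 times the female level, adjusted p = 2.56e-10), and the adenylyl cyclase gene Adcy6 at 4613 ± 335 and 2707 ± 363 (log2 fold -0.78 ± 0.070 (SE), adjusted p = 7.34e-11). Prkg1, a cyclic GMP-dependent kinase, was lower in inactive males (log2 fold -1.16, adjusted p = 8.94e-08).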
